A study of Mus musculus with 8 samples.

Results

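The nuclear genes of mitochondrial oxidative phosphorylation were followed in 8 microarrays of progenitor cells sorted from mouse bone marrow. Members were the genes of the deposited gene table whose symbol begins with Ndufa, Ndufb, Ndufc, Ndufs, Ndufv, Uqcr, Cox4, Cox5, Cox6, Cox7, Cox8 or Atp5, or is Sdha, Sdhb, Sdhc, Sdhd or Cyc1. The rule used symbols and no measured values, though it was set with earlier results of these data known. This gave 78 of 18132 genes. By complex there were 33 genes of complex I, 3 of complex II, 7 of complex III, 17 of complex IV (with Ndufa4, a complex IV subunit despite its name) and 14 of complex V. The symbols also caught 4 genes that encode no subunit, namely Ndufaf1, an assembly factor of complex I, Emc8, a subunit of a membrane insertion complex, and Dmac2 and Dmac2l, of which the last 3 stand in the table under the older symbols COX4NB, ATP5SL and ATP5S. Of complex II, Sdhb, Sdhc and Sdhd matched, and Sdha was not analysed here.

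All animals were C57BL/6 mice, and the genotypes were IRF-8 wild type (WT) and IRF-8 knockout (KO), IRF-8 being a transcription factor of blood cell development. All lymphoid progenitors (ALP) were sorted as IL7R+ Flk2+ c-kit+ cells without lineage markers, Ly6D or B220. Common myeloid progenitors (CMP) were sorted as c-kit high, CD34+ Flk2+ cells without lineage markers, Sca-1, CD11c, CD16/32 or CD115. Each of the 4 groups (WT ALP, KO ALP, WT CMP and KO CMP) had 2 arrays, called array 1 and array 2 after their replicate numbers. No label says how old the mice were, how many stood behind an array or whether replicates came from different mice. The p-values therefore cover the spread between these samples alone, which may be technical.

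Oxidative phosphorylation makes ATP in the inner mitochondrial membrane. Complexes I and II take electrons from NADH and succinate, complex III passes them to cytochrome c, complex IV hands them to oxygen, and complex V, the ATP synthase, uses the proton gradient that results. A few complex IV subunits exist as isoform pairs, with a general form in most tissues and a form found mainly in heart and skeletal muscle or in lung or testis. Blood progenitors are known to alter their use of mitochondria as they leave the stem cell state.

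Values are log2 signals after background correction and quantile normalization, and a difference between groups is in log2 units, where 1 means a doubling. They come from bulk samples, in which fewer cells of a type and less RNA per cell cannot be told apart. A probe counts as detected on an array where its detection p-value is under 0.05. Between 11122 and 12749 probes were detected per array, or 43.3% to 49.6%, and the number of arrays limits the precision of every value. Array 2 of WT ALP stood apart, with the fewest detected probes and a mean correlation across probes of 0.831 with the other arrays, and a correlation of 0.844 with array 1 of WT ALP, where the pairs of the other groups reached 0.939 to 0.95. Il7r, the receptor used to sort ALP, had levels of 8.55 to 8.79 in ALP and 4.95 to 5.37 in CMP, where it was detected on 0 arrays. Mpo, a myeloid granule enzyme, had levels of 9.84 to 11.45 in ALP and 11.87 to 12.20 in CMP. The Irf8 probe did not separate the genotypes. Its level was 10.97 and 10.89 in WT ALP, 11.40 and 11.17 in KO ALP, 11.06 and 10.96 in WT CMP, and 10.83 and 10.81 in KO CMP. Where this probe lies relative to the deleted sequence is unknown here, so it does not check the labels.

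Of the 78 members, 76 were linked to a probe and 72 were detected on at least 2 arrays and tested, 66 of them on all 8 arrays. Not detected on any array were Cox7b2, Cox8b and Cox8c, which are isoforms known from testis or muscle, and the Uqcrq probe, for a small complex III subunit. Ndufs4 and Cox6b1 could not be linked to a probe. In the authors' deposited table Ndufs4, a complex I subunit, had log2 values of 8.48 to 8.96, and Cox6b1, a complex IV subunit, 11.36 to 11.97. Of the tested members, 6 were detected on some of the 8 arrays, namely Cox4i2, Cox6b2, Cox7a1, Ndufab1, Ndufs1 and Uqcrfs1.

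Most members varied little. Their median within-group SD was 0.225, against 0.381 over all 12434 features tested, and 46 members spanned less than 1 log2 unit over the 8 arrays. That is 63.9% of the tested members, against 29.5% of all features. The sets were not matched for signal level, and all features include probes detected on only 2 arrays. Atp5j2, a subunit of the ATP synthase membrane part, spanned 0.26, from 11.35 to 11.61. At the other end, 5 members spanned 2 log2 units or more, namely Cox6a2 (3.79), Ndufa9 (2.57), Dmac2 (2.45), Cox7a1 (2.37) and Uqcrfs1 (2.09). Array 2 of WT ALP was the lowest of the 8 arrays for 33 of 72 members and for 25.2% of all features. The highest array was array 1 of WT CMP for 17 members (9.4% of all features) and array 2 of WT CMP for 20 (11.8%).

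**Figure D1:**
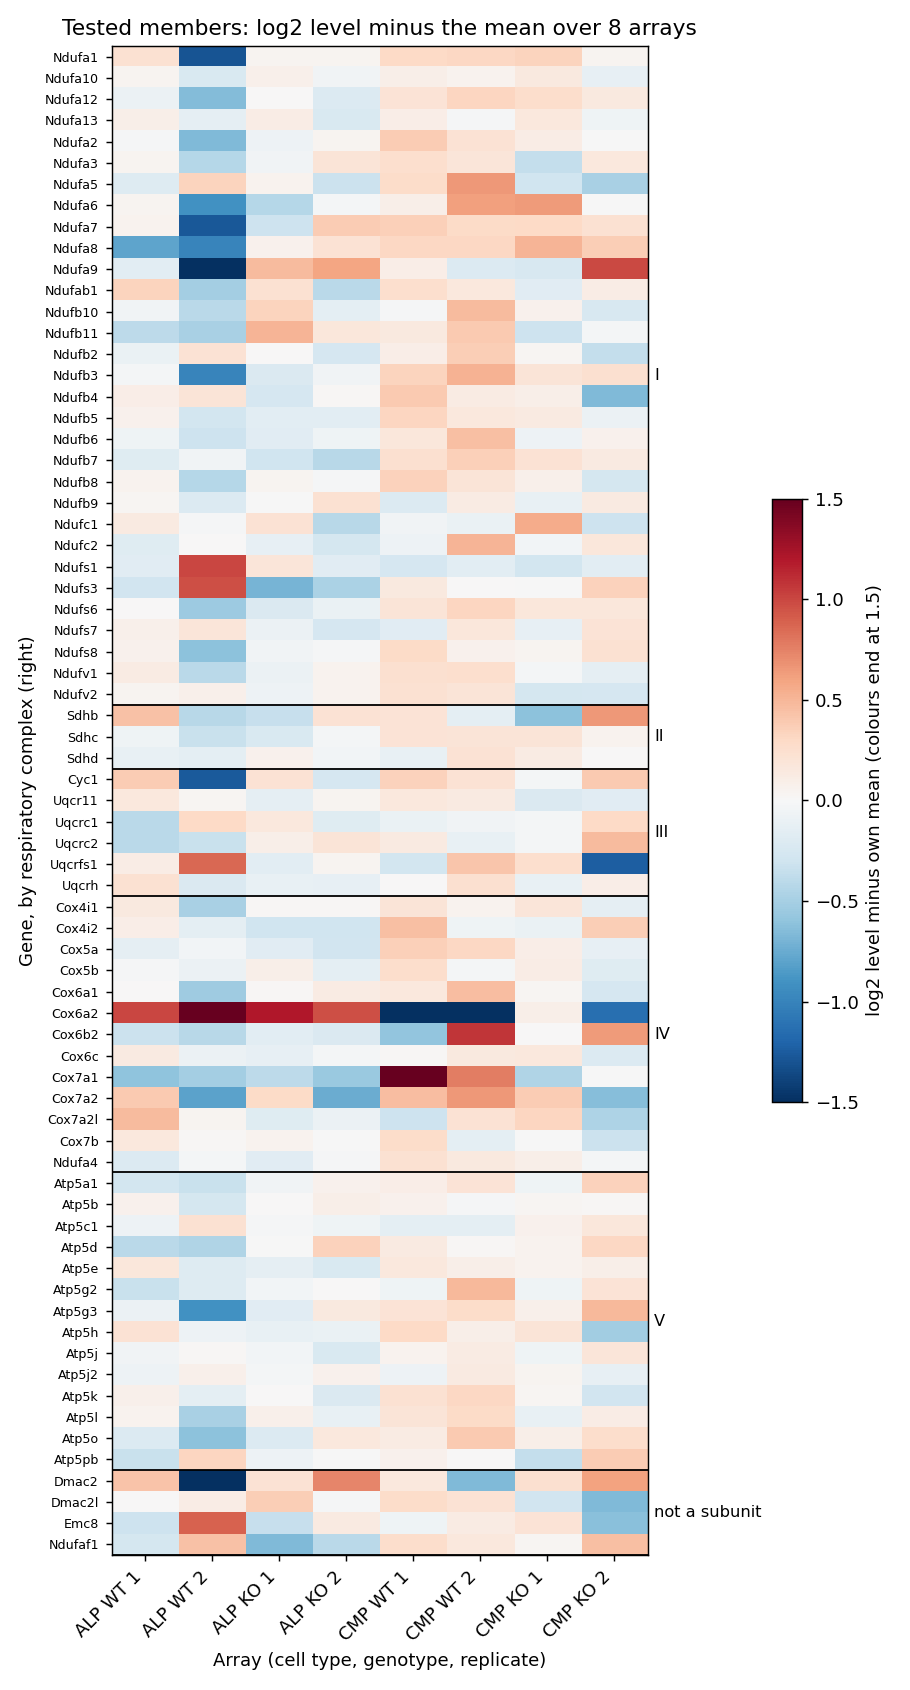
log2 level of the tested members reported here (rows, grouped by complex) on each of the 8 arrays (columns), minus the gene's own mean over the arrays, with red above and blue below the mean. Cox6a2 is red in the 4 ALP arrays and blue in both WT CMP arrays, Cox7a1 is red in both WT CMP arrays, and array 2 of WT ALP holds the lowest value of 33 of the 72 members.

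The member past the threshold between the cell types was Cox6a2, the heart and muscle form of the COX6A subunit of complex IV. Its level was 10.79 and 11.54 in WT ALP, 10.99 and 10.75 in KO ALP, 7.75 and 7.94 in WT CMP, and 9.87 and 8.65 in KO CMP. All 4 ALP arrays lay above all 4 CMP arrays, and both KO CMP arrays lay above both WT CMP arrays. WT ALP exceeded WT CMP by 3.32 (SE 0.45, limma with Benjamini-Hochberg adjusted p = 0.0169), which is 9.98-fold. Averaged over the genotypes, ALP exceeded CMP by 2.46 (SE 0.32, limma adjusted p = 0.0138), or 5.52-fold. It was the 1 member of 72 past an adjusted p of 0.05 in each of these comparisons. In WT 1.46% of all features passed, and 0.676% of all features passed as higher in ALP. Averaged over the genotypes 1.6% of all features passed, and 0.812% of all features passed as higher.

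Within the knockout the ALP value of Cox6a2 was 1.61 above the CMP value (SE 0.45, limma adjusted p = 0.501), which did not pass. KO CMP had a level 1.42 above WT CMP (SE 0.45, limma adjusted p = 0.70) and KO ALP a level 0.29 below WT ALP, and the difference between these knockout effects, -1.71 (SE 0.64, limma adjusted p = 0.645), did not pass either. The call in WT was lost when array 1 or array 2 of WT CMP was left out (adjusted p = 0.145 and 0.154, limma, log2 3.22 and 3.42). It was lost too when the 4 WT arrays were fitted alone (limma adjusted p = 0.136), a fit in which 0 of all features passed and 1316 had an unadjusted p under 0.05. The averaged call was lost without either KO ALP array, array 2 of KO CMP or either WT CMP array (limma adjusted p = 0.0535 to 0.085).

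The general form of the same subunit, Cox6a1, gave no call. Its level was 10.76 and 10.22 in WT ALP, 10.77 and 10.88 in KO ALP, 10.91 and 11.22 in WT CMP, and 10.79 and 10.51 in KO CMP. WT ALP lay 0.57 below WT CMP (SE 0.31, limma adjusted p = 0.44), the opposite direction to Cox6a2, and a second Cox6a1 probe gave -0.54. KO ALP and KO CMP differed by 0.17 (SE 0.31, limma adjusted p = 0.996).

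Cox7a1, the heart and muscle form of the COX7A subunit, was detected on both WT CMP arrays and on no other. Its level was 7.22 and 6.22 in WT CMP, 5.0 and 5.45 in KO CMP, 4.85 and 4.94 in WT ALP, and 5.06 and 4.90 in KO ALP. The lower of the WT CMP arrays lay above all 6 others. Against the lowest detected signal of the arrays without detection, WT CMP was at least 2.18-fold above WT ALP (limma adjusted p = 0.0732) and at least 2.37-fold above KO CMP (limma adjusted p = 0.507). Neither passed the threshold.

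Cox7a2, a general form of COX7A, was detected more widely and gave no call. It had levels of 7.07 and 5.88 in WT ALP, 6.97 and 5.94 in KO ALP, 7.14 and 7.33 in WT CMP, and 7.06 and 6.04 in KO CMP. In each group except WT CMP its arrays were about 1 log2 unit apart, and both WT CMP arrays lay above the other 6, as for Cox7a1. WT ALP lay 0.76 below WT CMP (SE 0.55, limma adjusted p = 0.56) and KO CMP 0.68 below it (SE 0.55, limma adjusted p = 0.968). Cox7a2l, a related protein that links complexes III and IV, had levels of 9.80 to 10.74 over the 8 arrays, and its largest difference was -0.39 in KO against WT ALP (SE 0.37, limma adjusted p = 0.687).

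Other isoform pairs gave no call. Cox4i2, the lung form of COX4, was detected on 2 arrays with levels of 4.80 to 5.55, and the general Cox4i1 had levels of 10.29 to 10.97. Cox6b2, the testis form of COX6B, was detected on 5 arrays with levels of 5.16 to 6.83, and its second probe ran from 4.90 to 7.42 with another order of arrays. Of the genes for the ATP synthase c-ring, which encode one and the same mature protein, Atp5g2 had levels of 10.50 to 11.31 and Atp5g3 10.05 to 11.44. WT ALP lay below WT CMP by 0.47 for Atp5g2 (SE 0.30, limma adjusted p = 0.507) and by 0.74 for Atp5g3 (SE 0.35, limma adjusted p = 0.382), and neither passed.

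**Figure D2:**
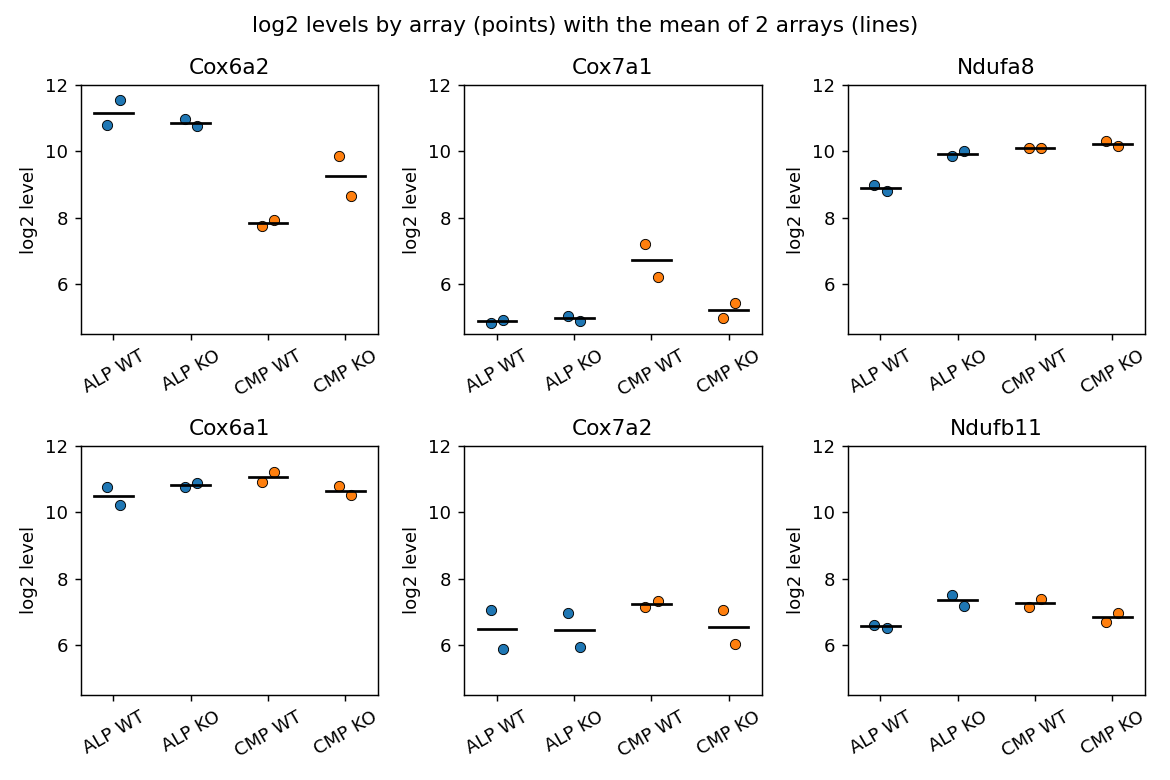
log2 level on each array (points) and the mean of the 2 arrays of a group (lines) for 6 members, with ALP in blue and CMP in orange. Cox6a2 lies between 10.75 and 11.54 in ALP and between 7.75 and 9.87 in CMP, Cox7a1 stands out in WT CMP, and Ndufa8 is lowest in WT ALP.

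The comparison of WT ALP with WT CMP asks how the lymphoid and the myeloid progenitor differ with IRF-8 present. Apart from Cox6a2, the members lay mostly lower in WT ALP, by small amounts that did not pass the test. Of 72 members, 60 had a value below 0, as did 51.4% of all features, and the median was -0.302, against -0.022 over all features. Both WT ALP arrays lay below both WT CMP arrays for 36 members, which 23.3% of all features did, and above them for 3, which 20.4% did. At an unadjusted p under 0.05 there were 5 members, Cox6a2 higher and Cox7a1, Ndufa8, Ndufb3 and Ndufb11 lower, where 15.0% of all features had one. Without array 2 of WT ALP the median was -0.181 with 50 members below 0, and without array 1 it was -0.351 with 58 below 0. In the same arrays the summed linear signal of neutrophil markers was 1380 and 1660 in WT ALP and 9040 and 7870 in WT CMP (7 of 12 tested), that of monocyte markers 1000 and 794 against 4470 and 4130 (8 of 8), and that of dendritic cell markers 2320 and 2560 against 12500 and 11800 (9 of 10). Their part in the members' values was not tested.

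Complex I, the NADH dehydrogenase, had the lowest median of the 5 complexes, -0.402, with 27 of 32 members below 0 and 19 whose WT ALP arrays lay below both WT CMP arrays. Ndufa8, a subunit of its membrane arm, showed the smallest p of the complex. Its level was 9.0 and 8.81 in WT ALP, 9.86 and 10.01 in KO ALP, 10.11 and 10.11 in WT CMP, and 10.31 and 10.16 in KO CMP. Both WT ALP arrays were below the other 6. WT ALP lay 1.21 below WT CMP (SE 0.26, limma adjusted p = 0.0808), just short of the threshold, and a second probe gave -1.22. The call was made under 5 of 20 other settings, namely no background correction, an offset of 50, no filter on dim probes, an intensity trend with robust fitting, and without array 1 of WT ALP (limma adjusted p = 0.0201 to 0.0416).

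Other complex I subunits that were lower in WT ALP than in WT CMP were smaller in difference or rested on 1 array. Ndufb3, of the membrane arm, had levels of 8.62 and 7.66 in WT ALP and 8.99 and 9.17 in WT CMP, a difference of -0.94 (SE 0.36, limma adjusted p = 0.283). Ndufa7, of the Q module, had 8.48 and 7.15 in WT ALP and 8.78 and 8.71 in WT CMP (-0.93, SE 0.46, limma adjusted p = 0.401). In both, array 2 of WT ALP was the lowest of the 8 arrays. Ndufb11, also of the membrane arm, had 6.61 and 6.52 in WT ALP and 7.15 and 7.40 in WT CMP (-0.71, SE 0.28, limma adjusted p = 0.307).

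By part of complex I, 5 of 6 subunits of the NADH-oxidizing N module lay below 0 (median -0.456), 5 of 8 of the quinone-binding Q module (median -0.424), and 17 of 18 of the membrane arm and other subunits (median -0.381). The median of complex I was -0.203 without array 2 of WT ALP and -0.628 without array 1, with 25 and 27 of 32 members below 0. The size therefore depended on the array that stood apart, while the direction held without either.

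The other complexes had medians nearer 0. Complex V, the ATP synthase, had a median of -0.22 with 13 of 14 members below 0, and -0.188 with 10 of 14 without array 2 of WT ALP. Atp5o, a subunit of the stalk, had levels of 8.37 and 7.96 in WT ALP and 8.70 and 8.97 in WT CMP (-0.67, SE 0.30, limma adjusted p = 0.351). Atp5d, a rotor subunit, had 9.19 and 9.14 against 9.73 and 9.61 (-0.50, SE 0.28, limma adjusted p = 0.446). Both genes were named because their groups did not overlap.

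Complex IV without its tissue-restricted isoforms had 7 of 9 members below 0 and a median of -0.294. Over all its 13 tested members the median of complex IV was also -0.294, and -0.132 with 8 below 0 without array 2 of WT ALP. Complex III had a median of -0.084 with 4 of 6 members below 0, and without that array its direction turned, to 0.025 with 2 of 6 below 0. Its core subunit Uqcrc2 had levels of 9.61 and 9.69 in WT ALP and 10.15 and 9.91 in WT CMP (-0.38, SE 0.29, limma adjusted p = 0.588), and Cyc1, cytochrome c1, had 8.78 and 7.14 against 8.75 and 8.62 (-0.73, SE 0.52, limma adjusted p = 0.556), a difference that lay in array 2 of WT ALP alone.

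All 3 tested members of complex II had values at or below 0 in this comparison. Sdhc, a membrane anchor, had levels of 11.03 and 10.76 in WT ALP and 11.30 and 11.29 in WT CMP (-0.40, SE 0.27, limma adjusted p = 0.528), and its second probe gave -0.54. Sdhd, the other anchor, gave -0.18, and Sdhb, the iron-sulfur subunit, -0.01. Sdhb spanned 6.79 to 8.06 over the arrays, with the lowest and the highest value both in KO CMP.

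Between the knockout groups the members lay nearer to one another. Of 72 members, 47 had a lower level in KO ALP than in KO CMP, where 49.6% of all features did, the median was -0.084, against 0.004 over all features, and 0 members passed, as 0.0563% of all features did. At an unadjusted p under 0.05 there was 1 member, Cox6a2. Both KO ALP arrays lay below both KO CMP arrays for 17 members (19.0% of all features) and above them for 6 (20.2%). Ndufb7, a complex I subunit of the intermembrane space face, had levels of 7.45 and 7.33 in KO ALP and 7.96 and 7.88 in KO CMP (-0.53, SE 0.26, limma adjusted p = 0.886), and all 4 of its ALP arrays lay below all 4 CMP arrays. Ndufs3, a core subunit of the Q module, was 0.75 lower in KO ALP (SE 0.42, limma adjusted p = 0.909) and Ndufa6, of the matrix arm, 0.55 lower (SE 0.42, limma adjusted p = 0.97), while of complex V Atp5e and Atp5c1 were 0.26 and 0.16 lower (SE 0.27 and 0.26, limma adjusted p = 0.985 and 0.996). In complex III, Uqcr11 had an opposite and small value of 0.15 (SE 0.26, limma adjusted p = 0.996).

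Averaged over the genotypes, 58 of 72 members lay lower in ALP, as 50.2% of all features did, with a median of -0.168, against -0.002 over all features. At an unadjusted p under 0.05 there were 5 members, Cox6a2 higher and 4 lower, where 13.5% of all features had one. All 4 ALP arrays lay below all 4 CMP arrays for 6 members, 5 of complex I and Sdhc, which 3.8% of all features did, and above them for Cox6a2, which 3.47% did. Among the 5 were Ndufa8 (-0.76, SE 0.19, limma adjusted p = 0.121), Ndufb3 (-0.65, SE 0.25, limma adjusted p = 0.326) and Ndufb7 (-0.47, SE 0.18, limma adjusted p = 0.318). Members whose arrays separate in this way have the same sign in both genotypes by construction. Whether the members' medians in WT and KO differ was not tested. The WT and KO comparisons of single members were tested as the difference between the knockout effects, and 0 members passed.

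**Figure D3:**
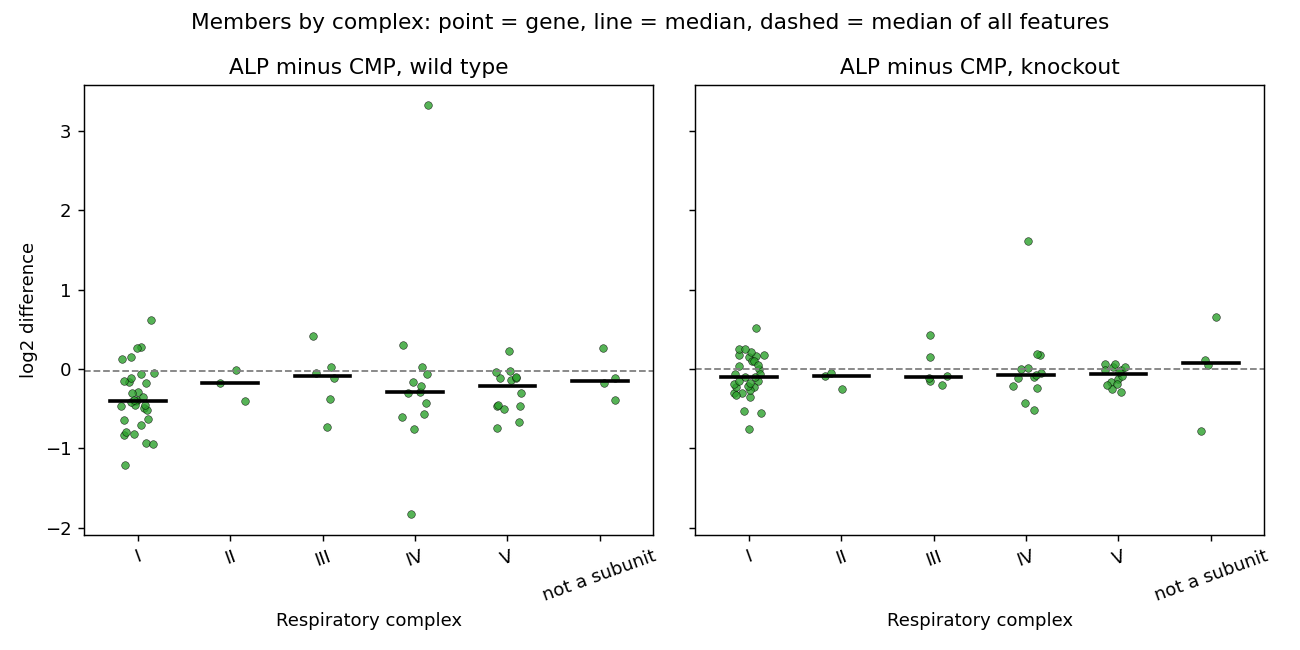
log2 difference of ALP minus CMP for each tested member (points) by complex, in WT (left) and KO (right), with the median of each complex (black lines) and of all features (dashed lines). In WT all 5 complex medians lie below the dashed line, complex I lowest at -0.402, and Cox6a2 lies above all other members in both panels.

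The comparison of KO with WT within ALP asks which of these genes depend on IRF-8 in lymphoid progenitors. No member passed, as 0.129% of all features did by limma, and 3 members had an unadjusted p under 0.05, all higher in the knockout, where 13.5% of all features had one and 7.65% of all features had one as higher. Of 72 members 40 lay above 0, as 51.3% of all features did, and the median was 0.042, against 0.015 over all features. Both KO arrays lay above both WT arrays for 10 members (22.4% of all features) and below them for 10 (19.8%). Complex I had a median of 0.109, complex II 0.072, complex III -0.041, complex IV -0.018 and complex V 0.079. Array 2 of WT ALP enters every one of these values, and without it the median over all members was -0.035.

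The 3 members were subunits of complex I. Ndufa8, whose levels are given above, was 1.03 higher in KO ALP (SE 0.26, limma adjusted p = 0.186), with a second probe at 1.08, so that KO ALP lay close to the CMP groups. Ndufa9, a subunit beside the quinone site, had levels of 9.43 and 8.01 in WT ALP and 10.06 and 10.18 in KO ALP, a difference of 1.40 (SE 0.55, limma adjusted p = 0.334). Array 2 of WT ALP was the lowest of the 8 arrays. Ndufb11 had 6.61 and 6.52 in WT ALP and 7.52 and 7.18 in KO ALP (0.78, SE 0.28, limma adjusted p = 0.293). A second, dim probe, detected on 4 of the 8 arrays, gave 0.81.

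Other members, whether lower or higher in KO ALP, did not pass either. Ndufs3 had levels of 7.79 and 9.05 in WT ALP and 7.38 and 7.61 in KO ALP (-0.93, SE 0.42, limma adjusted p = 0.405), with array 2 of WT ALP high. Uqcrc2 and Atp5d, both lower in WT ALP than in WT CMP, had KO ALP levels of 10.11 and 10.21 and of 9.58 and 9.93, which were 0.51 and 0.59 above WT ALP (SE 0.29 and 0.28, limma adjusted p = 0.499 and 0.417). When array 1 of WT ALP was left out, 4 members passed, Ndufa1, Ndufa9 and Dmac2 higher and Ndufs3 lower, as did 1010 of all features. That fit has the array that stood apart as its lone WT ALP array.

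In the same comparison the summed linear signal of neutrophil markers was 1380 and 1660 in WT ALP and 5110 and 5590 in KO ALP (7 of 12 markers tested, all 7 above 0 in the difference), while Cebpe and S100a8 were detected on 0 arrays. The part of such cells in the members' values was not tested.

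The comparison of KO with WT within CMP asks the same of myeloid progenitors. Members lay slightly lower in KO CMP, with 53 of 72 below 0, as 50.2% of all features did, and a median of -0.096, against -0.001 over all features. By limma 0 members passed, as 0.145% of all features did, and 4 members had an unadjusted p under 0.05, Cox6a2 higher and Cox7a1, Ndufa5 and Dmac2l lower, as 5.48% of all features did. Both KO arrays lay below both WT arrays for 25 members, which 19.1% of all features did, and above them for 6, which 19.7% did. The median over all members stayed between -0.138 and -0.076 when each CMP array was left out.

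By complex the medians were -0.115 for complex I, -0.007 for complex II, -0.12 for complex III, -0.156 for complex IV and -0.043 for complex V. All 9 complex IV members other than the tissue-restricted isoforms and all 6 tested subunits of the N module of complex I had values below 0. Among these 6, Ndufs1 was not detected on any CMP array, so its value compares background signals. The medians of complexes III and V turned to 0.04 and 0.001 without array 1 of KO CMP, and that of complex V to 0.019 without array 2 of WT CMP.

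Ndufa5, a subunit of the Q module, had levels of 8.34 and 8.72 in WT CMP and 7.77 and 7.58 in KO CMP (-0.85, SE 0.32, limma adjusted p = 0.803), with a second probe at -0.52. Ndufv2, an iron-sulfur subunit of the N module, had 10.45 and 10.42 in WT CMP and 9.96 and 9.97 in KO CMP (-0.47, SE 0.25, limma adjusted p = 0.95). Its KO CMP arrays were the lowest of the 8, since the ALP arrays lay between 10.15 and 10.30. Ndufb4, of the membrane arm, had 8.48 and 8.21 against 8.18 and 7.43 (-0.54, SE 0.33, limma adjusted p = 0.95), with array 2 of KO CMP low.

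In complexes III and V the values were smaller. Uqcr11, a small subunit of complex III, had levels of 10.56 and 10.54 in WT CMP and 10.19 and 10.23 in KO CMP (-0.34, SE 0.26, limma adjusted p = 0.968), and the core subunit Uqcrc1 gave 0.21 (SE 0.34, limma adjusted p = 0.982). Of complex V, Atp5k and Atp5l, both of its membrane part, gave -0.40 and -0.24 (SE 0.28 and 0.30, limma adjusted p = 0.96 and 0.976), and Atp5c1, the central stalk subunit, had 10.59 and 10.59 in WT CMP and 10.80 and 10.91 in KO CMP (0.27, SE 0.26, limma adjusted p = 0.975). These 5 genes were named because their groups did not overlap, and the sign was not shared.

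The 4 genes that the symbols caught and that encode no subunit gave no call. Dmac2l had levels of 6.74 and 6.68 in WT CMP and 6.18 and 5.80 in KO CMP (-0.72, SE 0.29, limma adjusted p = 0.85). Ndufaf1 had 6.67 and 6.93 in KO ALP and 7.37 and 7.79 in KO CMP (-0.78, SE 0.34, limma adjusted p = 0.849). Dmac2 ran from 6.00 on array 2 of WT ALP to 8.46, and the probes of Emc8 disagreed in WT, at 0.26 and -0.66.

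In this comparison the summed signal of dendritic cell markers was 12500 and 11800 in WT CMP and 2200 and 1590 in KO CMP (9 of 10 markers tested, 8 of them below 0 in the difference), and of 21 cell cycle genes 20 lay below 0 with a median of -0.284, and 0 passed by limma (3 had an unadjusted p under 0.05). Erythroid markers, of cells rich in mitochondria while they mature, summed to 1170 and 3560 in WT CMP and 1830 and 2080 in KO CMP, with Hba-a1 and Epor detected on 0 arrays. The part of any of these in the members' values was not tested.

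**Figure D4:**
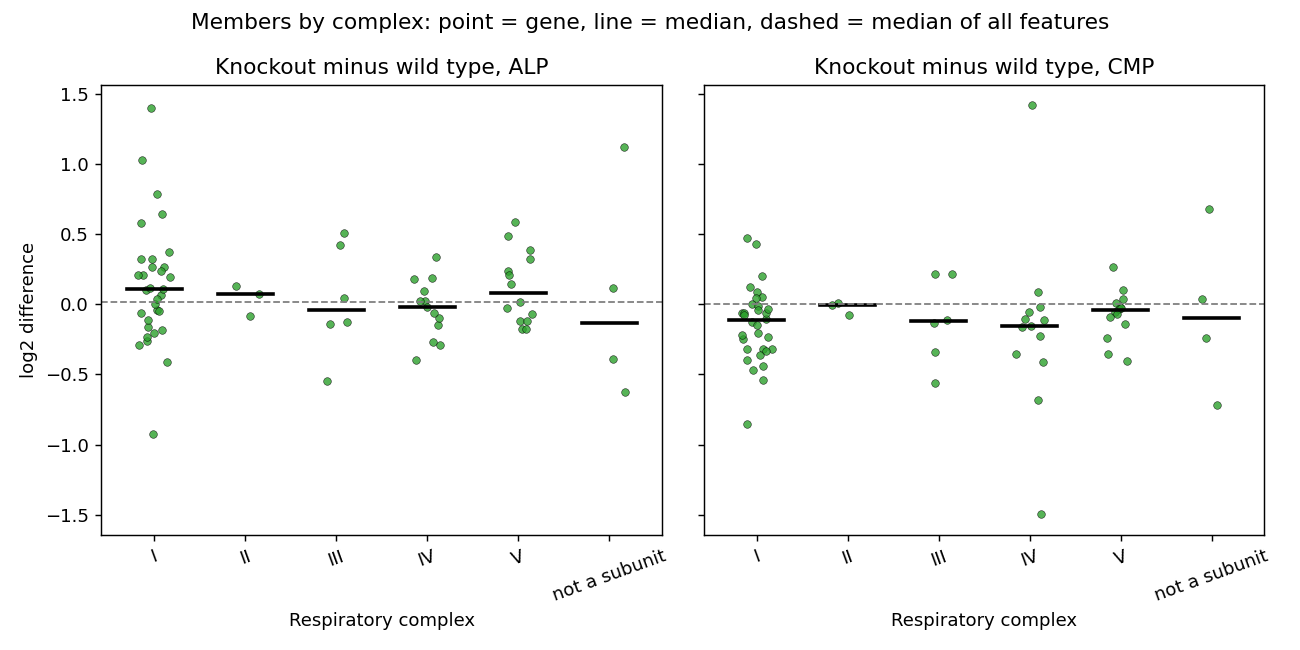
log2 difference of KO minus WT for each tested member (points) by complex, in ALP (left) and CMP (right), with the median of each complex (black lines) and of all features (dashed lines). In ALP the complex medians lie between -0.041 and 0.109, and in CMP between -0.156 and -0.007.

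The difference between the knockout effects, ALP minus CMP, was above 0 for 54 of 72 members, as for 52.2% of all features. Its median was 0.204, against 0.034 over all features, and 0.101 without array 2 of WT ALP. By limma 0 members passed, as 0.00804% of all features did, and 4 members had an unadjusted p under 0.05, Ndufb11, Cox7a1 and Ndufa8 above 0 and Cox6a2 below, where 7.1% of all features had one. Among complexes the median was 0.279 for complex I, 0.127 for complex II, 0.106 for complex III, 0.176 for complex IV and 0.252 for complex V. Without array 2 of WT ALP the order changed, with 0.077 for complex I, 0.016 for complex II, 0.163 for complex III, 0.068 for complex IV and 0.169 for complex V.

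By array, the median member lay 0.162 and 0.185 above its own mean in WT CMP, 0.04 and 0.051 above in KO CMP, 0.051 and 0.031 below in KO ALP, and 0.003 above and 0.206 below in WT ALP. All features had medians between -0.033 and 0.009. The arrays of WT CMP were therefore alike and highest, and the arrays of WT ALP unlike each other. In complex I the WT ALP arrays were 0.017 above and 0.354 below.

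**Figure D5:**
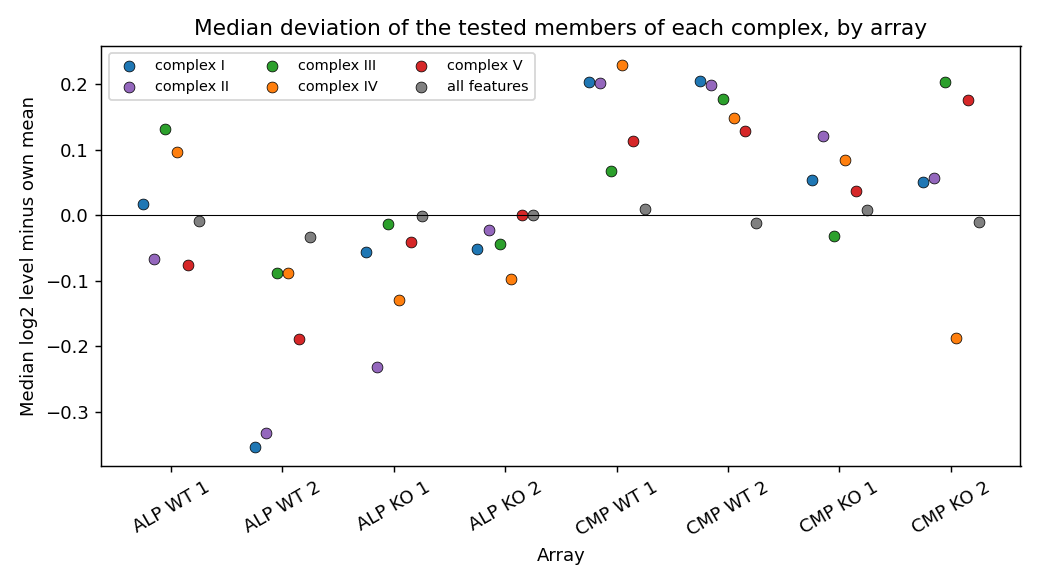
Median over the tested members of each complex, and over all features (grey), of the log2 level minus the gene's own mean, for each array. Array 2 of WT ALP is lowest for complexes I, II, III and V, with complex I at -0.354, and all 5 complexes lie above 0 in both WT CMP arrays.

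Genes for other mitochondrial functions also lay mostly lower in WT ALP than in WT CMP, and by limma 0 of them passed. All 17 tested genes of the TCA cycle and pyruvate dehydrogenase, which supply NADH and succinate, had values at or below 0 (median -0.398). The largest were Idh3a (detected on 1 of the WT ALP arrays, -1.65, SE 0.34, limma adjusted p = 0.0732), Mdh2 (-1.15, SE 0.43, limma adjusted p = 0.276) and Cs, citrate synthase (-1.05, SE 0.30, limma adjusted p = 0.162). Mdh2 had levels of 8.5 and 7.22 in WT ALP, with array 2 the lowest of the 8 arrays. Of 69 genes of the mitochondrial ribosome, which translates the subunits encoded in mitochondrial DNA, 54 lay below 0 (median -0.313), with Mrps18b at -2.08 (SE 0.78, limma adjusted p = 0.279), low and not detected on array 2 of WT ALP alone, and Mrpl10 at -1.44 (SE 0.27, limma adjusted p = 0.0527). Of 15 import and chaperone genes 14 did (median -0.339), and of 28 assembly factors and carriers outside the symbol rule 19 did (median -0.422), with cytochrome c, Cycs, detected on 1 of the WT ALP arrays, at -1.18 (SE 0.35, limma adjusted p = 0.182). Among these 28, array 2 of WT ALP lay far below array 1 for some, such as Cox14 (10.5 and 8.45 on arrays 1 and 2), Tmem70 (7.9 and 5.92) and Sdhaf4 (7.97 and 5.97). For others it lay above, such as Cox15 (6.88 and 8.13). How far the medians of these other lists depend on that array was not tested.

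Glycolysis, the other route to ATP, had 12 of 16 genes below 0 in the same comparison (median -0.261) and 1 call. Hk3, a hexokinase of myeloid cells, was 5.02 lower in WT ALP than in WT CMP (SE 0.35, limma adjusted p = 0.00382), with levels of 5.52 and 4.81 against 10.47 and 9.90, and its probe was detected on 1 of the WT ALP arrays. In KO against WT ALP, glycolysis genes had a median of 0.248 with 13 of 16 above 0, and 1 passed, where 0.129% of all features did. This was Hk3, with levels of 9.79 and 9.84 in KO ALP, 4.65 above WT ALP (SE 0.35, limma adjusted p = 0.019). In the same comparison TCA cycle genes had a median of 0.148 with 11 of 17 above 0.

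Regulators of these genes gave no call in these comparisons. Nrf1, a factor that binds promoters of respiratory genes, was 1.18 higher in KO than in WT ALP (SE 0.29, limma adjusted p = 0.176) and 0.52 lower in WT ALP than in WT CMP (SE 0.29, limma adjusted p = 0.455). The coactivator gene Ppargc1b, detected on 1 of the WT ALP arrays (levels 7.31 and 4.61), had values of 1.35 (SE 0.79, limma adjusted p = 0.513) and -0.97 (SE 0.79, limma adjusted p = 0.611) in these comparisons, and Myc 1.05 (SE 0.29, limma adjusted p = 0.208) and -0.78 (SE 0.29, limma adjusted p = 0.269). Gabpb1, a subunit of the ETS factor GABP, was 0.90 higher in WT ALP than in WT CMP (SE 0.32, limma adjusted p = 0.26).

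A further property that the symbol rule did not use is the promoter sequence. RefSeq promoter windows of 250 bases before and 50 bases after a gene's start on GRCm38.p6 were available for 63 of the 78 members, 69 windows in all, and were searched on both strands for 5 patterns, none of which contains another. NRF-1 was searched as GCGCA, any base and then GCGC, YY1 as AANATGGC, the ETS family (which includes GABP) as CCGGAAGT, the estrogen-related receptors as TCAAGGTCA, and an E-box as CAGGTG. The NRF-1 letters were in 15 of 69 member windows, or 21.7%, and in 4.6% of all 32851 windows. The YY1 letters were in 19, or 27.5%, and in 6.05% of all windows. The ETS letters were in 5.8% against 3.89%, the estrogen-related receptor letters in 2.9% against 0.423%, and the E-box in 21.7% against 20.2%. Median GC content was 57.7% in member windows and 52.7% in all, so base composition differs as well.

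NRF-1 letters were in 6 of 13 genes of complex V (among them Atp5g2, Atp5g3 and Atp5o), 5 of 29 of complex I, 1 of 12 of complex IV, 1 of 4 of complex III and 1 of 2 of complex II. YY1 letters were in 12 of 29 genes of complex I (among them Ndufa7, Ndufa9 and Ndufb11), 4 of 13 of complex V and 1 of 12 of complex IV. A match is a description of the letters and not evidence of binding. The windows of Cox6a1, Cox7a1, Ndufa8 and Ndufb11, all described above, are shown. Those of the general COX6A form and the 2 complex I subunits hold NRF-1 or YY1 letters, and that of Cox7a1 holds none of the 5 patterns. This does not set general forms apart from muscle forms. Cox7a2, a general form of COX7A, has no match either, and Cox6a1 is the 1 complex IV gene with NRF-1 letters. Each window shown is written in the direction of its gene, with the matched letters in capitals. They lie at chr5:115348909-115349208 on the minus strand, chr7:30183921-30184220 on the plus strand, chr2:36049289-36049588 on the minus strand and chrX:20617570-20617869 on the minus strand, in that order.
Cox6a1: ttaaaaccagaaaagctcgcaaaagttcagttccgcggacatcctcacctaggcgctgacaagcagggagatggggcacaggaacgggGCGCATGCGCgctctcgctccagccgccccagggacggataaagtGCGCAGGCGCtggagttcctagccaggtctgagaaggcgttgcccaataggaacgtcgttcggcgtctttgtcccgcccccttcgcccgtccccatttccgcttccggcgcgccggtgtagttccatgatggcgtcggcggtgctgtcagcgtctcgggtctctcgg
Cox7a1: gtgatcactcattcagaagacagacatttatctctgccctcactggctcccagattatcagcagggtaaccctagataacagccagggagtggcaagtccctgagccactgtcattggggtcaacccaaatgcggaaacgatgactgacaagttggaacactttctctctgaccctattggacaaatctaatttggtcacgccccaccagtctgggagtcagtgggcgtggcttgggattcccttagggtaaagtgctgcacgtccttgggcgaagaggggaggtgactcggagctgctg
Ndufa8: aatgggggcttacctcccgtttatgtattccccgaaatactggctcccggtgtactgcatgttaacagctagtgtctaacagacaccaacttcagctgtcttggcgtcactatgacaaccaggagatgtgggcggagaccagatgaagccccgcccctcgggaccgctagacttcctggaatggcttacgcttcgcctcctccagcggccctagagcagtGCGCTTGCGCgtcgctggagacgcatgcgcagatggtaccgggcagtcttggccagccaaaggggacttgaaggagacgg
Ndufb11: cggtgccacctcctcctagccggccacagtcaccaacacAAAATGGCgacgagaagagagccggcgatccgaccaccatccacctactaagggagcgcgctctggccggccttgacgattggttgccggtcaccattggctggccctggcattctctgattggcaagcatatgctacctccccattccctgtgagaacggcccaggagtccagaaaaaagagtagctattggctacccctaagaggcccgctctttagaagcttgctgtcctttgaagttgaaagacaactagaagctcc

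The Cox6a1 window holds NRF-1 letters at 162 and 117 bases before the start, the Ndufa8 window NRF-1 letters 30 bases before it, read on the opposite strand, and the Ndufb11 window YY1 letters 211 bases before it. Of these genes, Ndufa8 and Ndufb11 were lowest in WT ALP, and Cox7a1 was detected in WT CMP alone. With no match in the Cox7a1 window, only the absence of these letters from these 300 bases is known.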

How the data were processed

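The study used 1-colour Illumina MouseRef-8 v2.0 BeadChips, and RNA was amplified and biotin-labelled before hybridization, per the labels' protocols. The authors deposited 1 linear signal intensity and 1 detection p-value per probe and array, and the values show no sign of normalization. A second deposited table gives log2 values per gene, with no statement of how they were scaled or summarized. The detection p-values of array 1 of WT CMP carry no replicate number in the deposited file, and this column was given to the array left over. It followed that array's signal with a rank correlation of -0.996, against -0.9 for the other WT CMP array.

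Deposited probes carry no gene names here. A probe was named where its values, or a summary of several probes, equalled the authors' log2 gene values on all arrays within 0.0003. For 1150 genes the match was partial. There a probe was named where it differed from the gene's values by a nearly constant amount on at least 4 arrays. Together these linked 17642 of 18132 genes and 21498 of 25697 probes, and 0 of 2000 shuffled genes were linked to a single probe. The shuffled genes did not check the partial matches. Intensities were background-corrected and quantile-normalized with neqc (offset 16, limma 3.58.1, R 4.3.3). Probes with a detection p-value under 0.05 on at least 2 arrays were kept, and the brightest probe stood for a gene, which left 12434 features, unnamed probes included. A single limma model of the 4 groups gave 6 comparisons with 4 residual degrees of freedom, and p-values were Benjamini-Hochberg adjusted over all features of a comparison at 0.05. "At least N-fold" sets the mean of the detected group against, per array, the higher of the lowest detected signal and the probe's own value.

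Members named were those past the threshold, up to 3 per complex with the largest differences without overlap, the 5 smallest p-values where fewer passed, the isoform families and complex II. The values of 1 member that this rule names are not reported here, though it is kept in all counts and medians. The members, gene lists and rules were chosen with earlier results of these data known. Samples that share a replicate number did not deviate together (correlations -0.094 to 0.075), so no pairing was used. The fit was tested on simulated data.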

Additional observations from a re-analysis of the deposited data

Results flagged for a closer look

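In 2 members the arrays of the knockout lay beyond both wild-type arrays in opposite directions in the cell types. Ndufb11 was 0.78 higher in KO than WT ALP and 0.44 lower in KO than WT CMP, a difference between the effects of 1.22 (SE 0.40, limma with Benjamini-Hochberg adjusted p = 0.571). A second Ndufb11 probe gave 0.81 and -0.74, but it was dim, with levels of 4.9 to 6.31 and detection on 4 arrays. Cox6a1 was 0.33 higher and 0.41 lower, a difference of 0.74 (SE 0.44, limma adjusted p = 0.791). Its lower KO ALP array, at 10.77, lay just above its higher WT ALP array, at 10.76. A second Cox6a1 probe gave 0.26 and -0.36, but its ALP groups overlapped (10.76 and 9.98 in WT, 10.5 and 10.76 in KO). Neither difference between the effects passed the test. The same pattern held for 2 of 72 members, or 2.8%, and for 743 of all features, or 6.0%.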

How the results depend on the processing

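With 2 arrays per group and 4 residual degrees of freedom, precision is set by the number of arrays, and dim probes such as Cox7a1 have only a bound where they were not detected. Up to 21 other settings were tried per count, and 0 turned the sign of a called value. Where a value moved, the cause was not tested, except that fits without a lone array or on the arrays of 1 comparison use fewer samples.

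Members called between WT ALP and WT CMP numbered 1, and 0 with the arrays of the comparison alone, 2 with no background correction, no filter or an offset of 50 (Cox6a2 and Ndufa8), 3 with an intensity trend and robust fit or at an adjusted p under 0.1 (with Cox7a1), and 0 to 6 without single arrays. It was 0 without either WT CMP array and 6 without array 1 of WT ALP (Cox6a2, Cyc1, Ndufa1, Ndufa7, Ndufa8 and Ndufb3). Averaged over genotypes the 1 call became 2 with a trend and robust fit, no background correction or no filter, and 0 to 3 without single arrays. Calls of KO against WT ALP were 0, and 0 to 4 without single arrays (4 without array 1 of WT ALP).

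The median of -0.302 between WT ALP and WT CMP became -0.224 with no background correction, and ran from -0.351 to -0.181 without single arrays. Median scaling in place of quantiles shifted all features too. It gave medians of -0.068 for KO against WT in ALP (all features -0.03), -0.331 in CMP (all features -0.144), 0.314 for the difference between these effects (all features 0.139) and 0.016 for KO ALP against KO CMP (all features 0.101). Without single arrays the median of KO against WT ALP ran from -0.035 to 0.134, and that of the difference between the effects from 0.101 to 0.307.

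With the replicate number as a replicate block, Cox6a2 was the 1 member called in WT (limma adjusted p = 0.041) and averaged over genotypes (limma adjusted p = 0.0332), 0 members were called elsewhere, and the medians were the same, -0.302 in WT.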
